A study of Mus musculus with 14 samples.

Results

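The cells described here are spiral ganglion neurons that carry Lypd1 RNA and little or no Calb2 RNA, from the cochleas of CD1 mice late in gestation (E18) and just after birth (P1). Cells were chosen by their measured Lypd1 and Calb2 values: a cell was taken when it had at least 1 Lypd1 UMI (unique molecular identifier, a count of captured RNA molecules) and fewer than 5 Calb2 UMIs per 10000 UMIs. Of 1326 cells in the 3 E18 and 2 P1 libraries, 412 met the rule, out of 5441 cells in the whole series. They are called Lypd1+ Calb2-low neurons below. Every library came from whole ganglia of pooled animals of the CD1 strain with no genetic change or drug. The labels give separate litters for each E18 replicate. Some sensory epithelium and mesenchyme stayed on the ganglia at dissection, and papain was used to dissociate the tissue at both ages. Cells were then captured as 10x droplet libraries that read the 3′ end of each RNA.

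Spiral ganglion neurons carry sound information from hair cells to the brain. Type I neurons contact inner hair cells and are sorted by their RNA into subtypes IA, IB and IC, whereas type II neurons contact outer hair cells. In the adult, IA neurons are known for Calb2 (the calcium buffer calretinin), IB neurons for Calb1 (calbindin), and IC neurons for Lypd1 and Pou4f1. Lypd1 (also called Lynx2) encodes a membrane-anchored protein of the Ly6 family that can bind nicotinic acetylcholine receptors. Pou4f1 encodes Brn3a, a POU-homeodomain transcription factor of sensory neurons, Runx1 a runt-domain factor, Bhlhe22 a bHLH factor of neurons, and Espn the actin bundler espin, best known from hair cell stereocilia.

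In the mm10 build with GENCODE vM21 annotation, Lypd1 lies on the minus strand of chromosome 1 from 125867622 to 125913101 and overlaps Gpr39 on the other strand. Calb2 lies on the minus strand of chromosome 8 from 110137502 to 110168210. Pou4f1 is on the minus strand of chromosome 14 from 104461676 to 104467999, Espn on the minus strand of chromosome 4 from 152120331 to 152152371, and Bhlhe22 on the plus strand of chromosome 3 from 18054174 to 18057517. All 5 are protein-coding, and no gene overlaps the last 4. The sources used here do not give whether reads were counted by strand.

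The 5 libraries held 162 to 377 cells and 1460876 to 3026607 UMIs. Lypd1+ Calb2-low neurons contributed 448117 to 884095 UMIs per library. The median depth of these neurons was 7764 ± 2444 UMIs per cell (mean ± SD over 5 libraries) against 8200 ± 2474 in the other cells. The difference of -436 UMIs was not past the threshold in an exact two-sided sign permutation test (p = 0.125), which cannot reach 0.05 with 5 libraries. Median genes per cell were 2856 ± 563 in these neurons and 3034 ± 569.5 in the other cells, lower in 5 of 5 libraries (difference -178, at the smallest p that the exact two-sided sign permutation test allows). A single barcode occurred in more than 1 of these libraries. The mitochondrial transcript mt-Rnr2 made up 0.740% of the UMIs of these neurons in E18 replicate 1 and 0.118% to 0.219% in the other 4 libraries, against 0.636% and 0.0861% to 0.172% in the other cells. Ribosomal protein genes made up 3.64% to 4.75% of UMIs in these neurons and at most 4.47% in the other cells. Both shares were higher in these neurons than in the other cells in 5 of 5 libraries, and their part in the differences between the classes was not tested. At least 1 UMI of the haemoglobin gene Hbb-bs was found in 5.97% to 26.2% of these neurons per library.

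Both genes of the rule are given as a description. Lypd1+ Calb2-low neurons had a median of 9 Lypd1 UMIs per cell, with a highest value of 47, and 326 of 412 (79.1%) had 5 or more. Only 16 entered on a single Lypd1 UMI. No Calb2 UMI was found in 297 of them (72.1%). Near the limit, 19 neurons had 4 to 5 Calb2 UMIs per 10000, and 16 Lypd1-positive cells stood just outside it with 5 to 6. The highest value inside was 4.97 and the lowest outside 5.02. Summed over cells, Lypd1 stood at 1287 ± 220 CPM (UMIs of a gene per 1000000 UMIs summed in that class and library) against 206 ± 74.7 CPM in all other cells. Calb2 stood at 72.8 ± 26.3 against 2452 ± 641 CPM.

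The remaining 914 cells fall into 3 classes by the same values. There were 298 double positive cells (Lypd1 above 0, Calb2 at 5 or more), 511 Calb2-only cells and 105 double negative cells. Lypd1+ Calb2-low neurons made up 32.4% of cells in E18 replicate 1 (95% exact binomial interval 27.7 to 37.3), 31.9% in replicate 2 (26.8 to 37.3) and 37.7% in replicate 3 (30.2 to 45.6). At P1 they made up 25.5% (20.3 to 31.2) and 29.3% (23.2 to 36.2). These intervals cover counting error only. Both P1 shares lay under all 3 E18 shares, with a mean difference of -6.55 percentage points. The exact two-sided permutation test over libraries gave p = 0.1, the smallest that 3 against 2 allows. After each cell was thinned to 5000 UMIs and shallower cells were left out, the difference was -2.41 points (exact permutation p = 0.6).

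**Figure D1:**
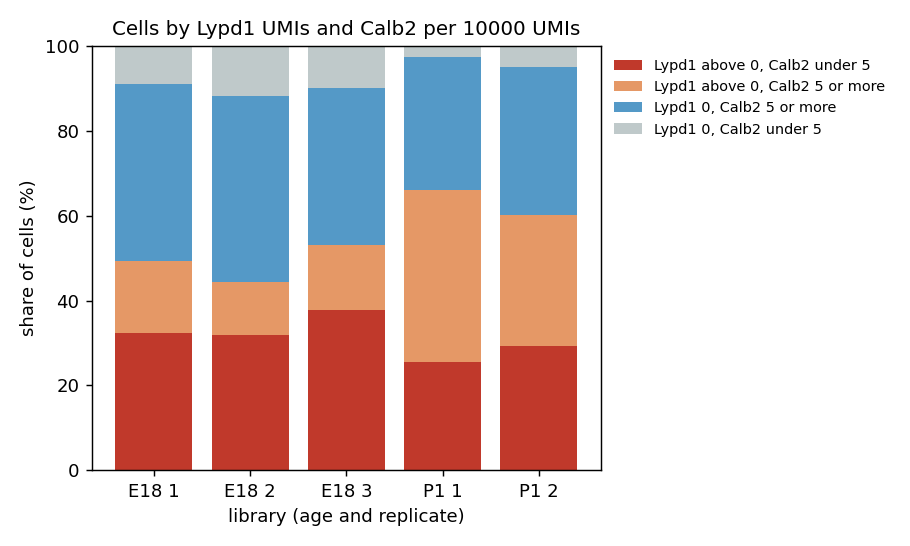
Share of cells (%) in each of 4 classes, set by Lypd1 UMIs and Calb2 per 10000 UMIs, stacked for the 3 E18 and 2 P1 libraries. Lypd1+ Calb2-low neurons (red) span 25.5% to 37.7%, and double positive cells (orange) lie at 12.4% to 17.0% at E18 and at 30.9% and 40.7% at P1.

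The mix of Lypd1-positive cells differed more between the ages. Double positive cells formed 14.9% ± 2.34 of cells at E18 and 35.8% ± 6.95 at P1, a difference of 20.8 points with no overlap between libraries (exact permutation p = 0.1). Thinning to 5000 UMIs left a difference of 15.3 points (exact permutation p = 0.1). Lypd1+ Calb2-low neurons were 65.6%, 72.0% and 70.9% of Lypd1-positive cells at E18, and 38.5% and 48.8% at P1. All values at P1 were lower than all values at E18, at the smallest p that the exact test allows (p = 0.1).

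Pou4f1, Espn and Bhlhe22, 3 genes outside the rule, were listed with Lypd1 as markers of these IC-like neurons. They were chosen with earlier results of these data known, so their levels are a description and no independent check of that name. In single cells, 334 of 412 neurons had a UMI of at least 1 of these genes: 156 had 1 of the 3, 125 had 2 and 53 had all 3. In the remaining 78 (18.9%) none was detected. Of the double positive cells 175 of 298 had none, and of the Calb2-only cells 480 of 511. Pou4f1 was detected in 51.5% of Lypd1+ Calb2-low neurons, 12.8% of double positive cells, 0.391% of Calb2-only cells and 0.952% of double negative cells. At 5000 UMIs per cell the share was 39.4% against 3.98% in all other cells and 0.455% in Calb2-only cells. Espn was found in 37.1%, 17.1%, 2.54% and 2.86% of the 4 classes in the same order, and Bhlhe22 in 48.5%, 25.8%, 3.33% and 7.62%. For each of these genes the share in Lypd1+ Calb2-low neurons was above that in Calb2-only cells (medians of 7164.5 and 7797 UMIs per cell). The background of free RNA was not measured. The share of neurons with none of the 3 varied with the library, from 5.97% in P1 replicate 1, the deepest, to 31.1% in E18 replicate 2, the shallowest (medians of 11234 and 4437 UMIs per neuron). The other libraries lay between them. E18 replicate 3 (8418 UMIs) had 12 of 61 neurons with none (19.7%) and E18 replicate 1 (7228.5 UMIs) 20 of 122 (16.4%). P1 replicate 2 (7504 UMIs) had 10 of 59 (16.95%). These counts are too small to rank those libraries, and the part of depth was not tested.

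UMI counts were summed per library and class, and Lypd1+ Calb2-low neurons were compared with all other cells of the same library with edgeR's quasi-likelihood test, with library as a block and Benjamini-Hochberg adjustment over all genes tested. Log2 differences are given as these neurons minus the other cells, with SE the absolute log2 difference over the square root of the F statistic. Lypd1 and Calb2 were left out. Of 7931 genes, 940 passed an adjusted p of 0.05 (percent called 11.9), 467 higher (5.89) and 473 lower (5.96). All 3 marker genes were higher.

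Pou4f1 stood at 135, 146 and 88.4 CPM in E18 replicates 1 to 3 and at 109 and 112 CPM in P1 replicates 1 and 2. In the other cells it stood at 7.00, 6.51 and 8.40 CPM at E18 and 7.38 and 7.28 CPM at P1. The ranges did not overlap and the other cells hardly varied. The difference was 4.06 (SE 0.17, edgeR adjusted p = 2.37e-34). Espn stood at 183, 64.2, 60.9, 199 and 120 CPM in these neurons and at 18.2, 6.51, 8.40, 29.1 and 10.0 CPM in the other cells, in the same order of libraries. E18 replicate 1 and P1 replicate 1 were high in both classes, and the classes did not overlap (log2 difference 3.14, SE 0.14, edgeR adjusted p = 3.42e-32). Bhlhe22 ran at 99.5, 101, 104, 132 and 143 CPM against 11.2, 15.8, 15.8, 24.9 and 29.1 CPM (2.66, SE 0.14, edgeR adjusted p = 1.2e-27). Its 2 highest values in either class were those of P1.

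**Figure D2:**
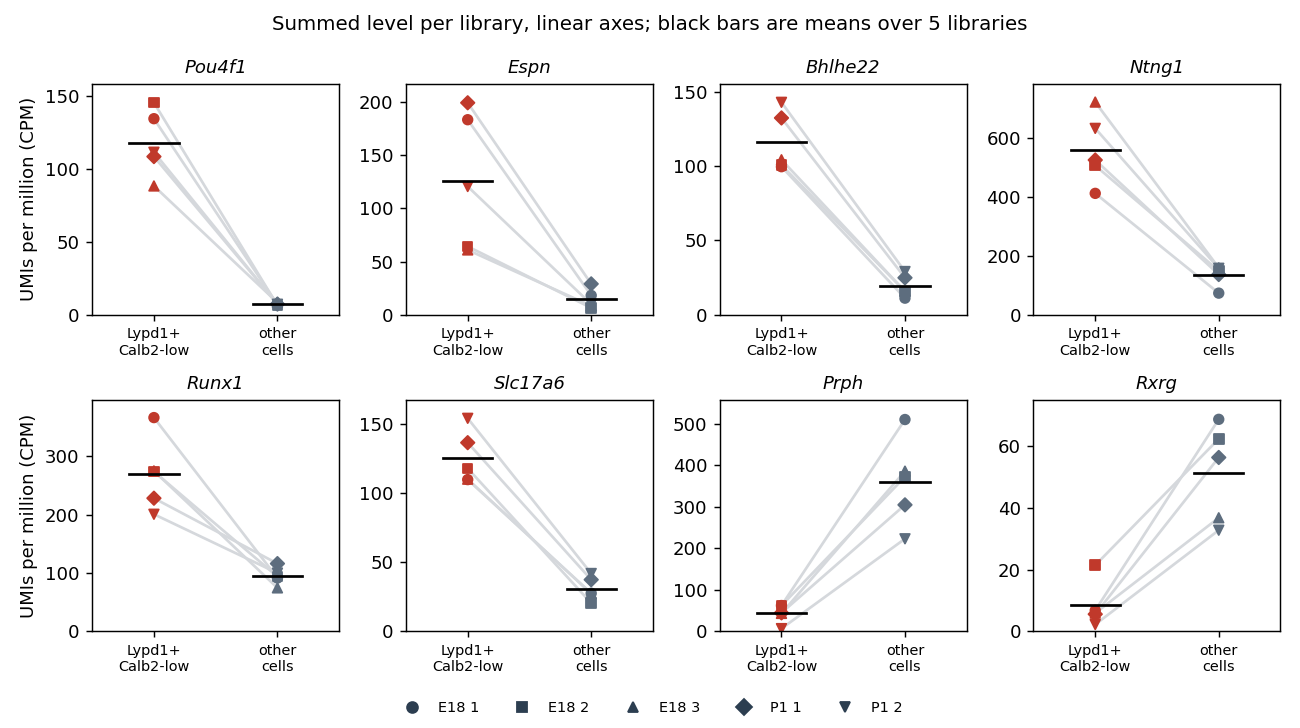
Summed level (CPM, linear axes) of 8 genes in Lypd1+ Calb2-low neurons (red) and all other cells (blue-grey) of each library. Symbols mark the 5 libraries, grey lines join the classes of a library, and black bars are means. In each panel the 2 classes do not overlap: Pou4f1, Espn, Bhlhe22, Ntng1, Runx1 and Slc17a6 are higher and Prph and Rxrg lower in the red class.

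Among genes known to mark IB and IC neurons, Ntng1 and Runx1 were higher. Ntng1, a membrane-anchored netrin G of synaptic adhesion, stood at 413, 507, 723, 526 and 634 CPM against 73.7, 150, 160, 137 and 158 CPM. No other gene tested had a smaller edgeR adjusted p in this comparison (log2 difference 2.13, SE 0.07, adjusted p = 1.58e-39). Runx1 stood at 366, 274, 275, 228 and 201 CPM against 91.5, 93.9, 74.6, 116 and 100.04 CPM (1.55, SE 0.10, edgeR adjusted p = 1.16e-23). Calb1 ranged from 57.8 to 132 CPM in these neurons and from 40.0 to 118 CPM in the others, with wide overlap. Its difference of 0.38 (SE 0.12, edgeR adjusted p = 0.0153) was not past the threshold without E18 replicate 1, without E18 replicate 2, without P1 replicate 2, in P1 libraries alone, in DESeq2, with no filter on low counts, in cells of 5000 UMIs or more, after thinning or without the block by library. With the class limited to neurons with 0 Calb2 UMIs, the Calb1 difference was 0.12 (edgeR adjusted p = 0.7). Grm8, a metabotropic glutamate receptor of the same list, was too low to test, at 12.8 ± 4.28 against 3.66 ± 1.18 CPM. Ttn and Lrrc52 were also untested, with 7 and 1 UMIs in all Lypd1+ Calb2-low neurons.

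Markers of IA and type II neurons ran the other way. Rxrg, a retinoid X receptor, stood at 6.79, 21.4, 5.90, 5.57 and 2.23 CPM against 68.6, 62.3, 36.8, 56.3 and 32.7 CPM (log2 difference -2.70, SE 0.24, edgeR adjusted p = 8.51e-16). With Mdga1 (-0.38) and B3gat1 (-0.83), all 3 tested genes of the IA list passed as lower. However, B3gat1 lost its call without E18 replicate 1, without P1 replicate 1, in E18 or P1 libraries alone and in DESeq2. The protocadherin gene Pcdh20 had 3 UMIs in Lypd1+ Calb2-low neurons and 120 in Calb2-only cells, a ratio of 29.9 (95% counting interval 9.99 to 147). Of 6 tested genes of the type II list, 5 were lower. Over all genes tested, 5.96% were lower. The intermediate filament gene Prph stood at 62.2, 62.1, 43.2, 44.6 and 6.69 CPM against 510, 372, 386, 304 and 223 CPM (-2.97, SE 0.11, edgeR adjusted p = 2.18e-37). Th, the dopamine-synthesis enzyme tyrosine hydroxylase, had 2 UMIs against 218, a ratio of 44.4 in favour of the other cells (12.1 to 368). Gata3 (-0.76) and Ngfr (-0.51) differed less, and Ngfr lost its call without E18 replicate 3, in P1 libraries alone, after thinning and in DESeq2.

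Further genes were named by the size of the difference. Mgat4c, a glycosyltransferase gene, stood at 47.2 ± 18.9 against 5.04 ± 3.04 CPM (SD, n = 5 libraries, log2 difference 3.31). Grxcr1, known from hair cell bundles like Espn, stood at 29.6 ± 10.2 against 5.08 ± 1.41 CPM (2.70). Vav3, an activator of small GTPases, stood at 27.0 ± 2.76 against 5.23 ± 0.843 CPM (2.43). Cdk14, a cyclin-dependent kinase gene, ran from 181 to 294 CPM in these neurons and from 33.6 to 52.7 CPM in the others (2.25). The extracellular matrix gene Hmcn1 (2.07) and Nmrk1, a kinase of NAD synthesis (1.90), were higher too. Each of these 6 genes was higher in 5 of 5 libraries and passed edgeR's adjusted threshold.

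The gene with the largest fitted fall was Myl1, a myosin light chain of fast muscle, at 2.03 ± 1.56 against 121 ± 66.2 CPM (-5.69, SE 0.26, edgeR adjusted p = 8.61e-32). The skeletal actin gene Acta1 (-2.69) and Nexn, an actin-binding protein of muscle (-3.34), were lower with it. Necab1, a neuronal calcium-binding protein, stood at 4.27 ± 4.04 against 61.8 ± 11.4 CPM (-3.61). Tac1, the precursor of substance P, stood at 4.24 ± 3.57 against 38.0 ± 20.6 CPM (-3.29). Dok5, an adaptor of receptor tyrosine kinases, fell by 3.07, the malic enzyme gene Me1 by 2.72 and Creg2 by 2.56. The guidance ligand gene Efna5 had 2 UMIs in these neurons and 168 in the other cells, a ratio of 34.2 (9.32 to 284). Each of these 9 genes was lower in 5 of 5 libraries and passed edgeR's adjusted threshold.

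Of a list of 60 transcription factors and other nuclear regulators, 42 were tested, of which 13 were higher (31.0%) and 15 lower (35.7%), beside 5.89% and 5.96% of all genes tested. The median log2 difference over those tested was 0.15, against 0.01 over all genes tested. Besides Pou4f1, Bhlhe22 and Runx1, the higher genes included Tshz1 (1.66), Thrb, a thyroid hormone receptor (1.40), Rbfox3, the splicing regulator NeuN (1.22), Bcl11a (1.18) and Ebf1 (0.93). Ebf1 stood at 644, 831, 723, 554 and 645 CPM against 303, 469, 432, 293 and 375 CPM, with no overlap. Among the lower genes, the corepressor Tle4 stood at 172, 182, 132, 75.2 and 114 CPM against 389, 605, 523, 254 and 289 CPM (-1.52, SE 0.08, edgeR adjusted p = 1.23e-26). Tshz2 (-0.86), a paralogue of the higher Tshz1, was lower, as were Maf (-0.83), Meis3 (-0.81), Lmo1 (-0.69) and Zfhx3 (-0.68). Isl1, a general factor of these neurons, was lower by 0.35.

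**Figure D3:**
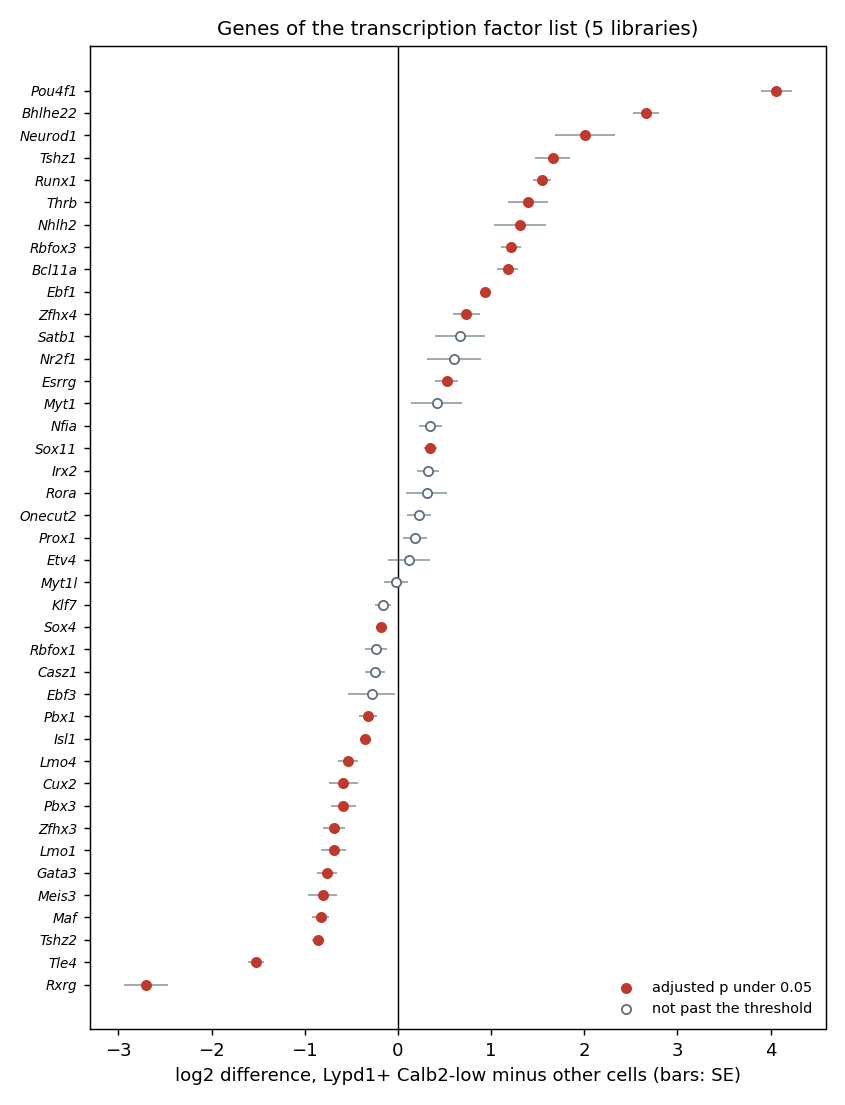
Log2 difference of Lypd1+ Calb2-low neurons minus other cells for all but 1 of the 42 tested genes of the regulator list, ordered by size, with bars of 1 SE from 5 libraries. Filled points pass an edgeR adjusted p of 0.05: those to the right of 0 are led by Pou4f1 at 4.06, and those to the left reach down to Rxrg at -2.70.

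Of 4 tested neuroblast genes, 3 were higher, beside 5.89% of all genes tested. Neurod1 stood at 18.1, 25.7, 25.5, 13.9 and 20.1 CPM against 0.933, 7.44, 8.40, 2.77 and 10.9 CPM (2.01, SE 0.32, edgeR adjusted p = 8.29e-07). It overlaps Cerkl on the same strand, so its reads are uncertain. Nhlh2 (1.31) and Sox11 (0.35) also passed and Dcx did not, while Neurog1 had no UMI. Sox11 lost its call in P1 libraries alone (0.05). Of 3 genes tested, 2 were higher than in double positive and in Calb2-only cells (1.76% and 7.68% of all genes). Against double negative cells none was higher and Sox11 was lower, beside 6.51% and 5.39% of all genes. The 7 genes summed to 332 to 846 CPM in Lypd1+ Calb2-low neurons and 573 to 980 CPM in double negative cells. Cycling genes were too low to test, at 1.39 to 10.7 CPM summed over 4 genes.

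Calcium-binding proteins counted 7 higher (43.8%) and 2 lower (12.5%) among 16 tested, beside 5.89% and 5.96% of all genes tested. Their median difference was 0.20, against 0.01 over all genes tested. Pvalb, the calcium buffer parvalbumin, stood at 3632, 3710, 4372, 4784 and 5907 CPM against 1899, 1504, 2061, 2815 and 3467 CPM. The classes did not overlap, and both were highest at P1 (log2 difference 1.02, SE 0.05, edgeR adjusted p = 5.09e-32). Calmodulin 2 (Calm2, 0.99), S100b (1.46), Cabp1 (1.29) and Vsnl1 (0.61) were among the higher genes, as was Calb1 with the limits given above. Necab1 and the kinase inhibitor gene Camk2n1 (-1.24) were lower.

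Among 27 tested genes of synaptic vesicles and release, 4 were higher (14.8%), 4 lower (14.8%) and 19 passed in neither direction (median -0.08), beside 5.89% higher and 5.96% lower over all genes tested. Slc17a6, the vesicular glutamate transporter VGLUT2, stood at 110, 118, 110, 136 and 154 CPM against 27.5, 20.5, 27.3, 37.4 and 41.8 CPM (2.05, SE 0.13, edgeR adjusted p = 3.41e-24), with no overlap. Slc17a7, or VGLUT1, stood at 44.9 ± 5.25 against 60.8 ± 15.7 CPM, with overlapping libraries (-0.41, SE 0.15, edgeR adjusted p = 0.0468). This call was lost without E18 replicate 1, without P1 replicate 1, without P1 replicate 2, in E18 or P1 libraries alone, in cells of 5000 UMIs or more, after thinning and in DESeq2. Of the synaptotagmins, calcium sensors of release, Syt2 was higher (1.05) and Syt7 (-0.92) and Syt5 (-0.56) lower. Syt2 lost its call after thinning to 5000 UMIs (0.77, edgeR adjusted p = 0.0683), and Syt5 in P1 libraries alone and in DESeq2 (adjusted p = 0.0554). Syt2 overlaps Ppp1r12b on the other strand.

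The potassium channel list had 3 higher (15.8%) and 3 lower (15.8%) of 19 tested, led by Kcna1 (Kv1.1) at 77.7 ± 22.9 against 34.0 ± 10.1 CPM (1.22, SE 0.14, edgeR adjusted p = 3.25e-11). Of 24 sodium, HCN and calcium channel genes tested, 1 was higher (4.17%), Scn1a (0.85), and 4 were lower (16.7%), among them Cacna1h (-0.88), Cacna2d2 (-0.97) and Cacnb4 (-0.54). Over all genes tested 5.89% were higher and 5.96% lower. With 1 higher gene of 24, the 4.17% cannot be set apart from the 5.89%. Scn1a, Cacna1h, Cacna2d2 and Cacnb4 lost their call in DESeq2. Scn1a and Cacnb4 also lost it in E18 libraries alone, Cacna2d2 in P1 libraries alone, and Cacna1h and Cacnb4 after thinning. Cacna2d2 lost it without E18 replicate 2 and Cacnb4 without E18 replicate 1. Of 9 tested glutamate receptors, Gria3 was higher (0.55, a call lost when the class was limited to 0 Calb2 UMIs) and the kainate receptor Grik3 lower, at 0.452 against 15.0 CPM. Of 5 tested genes in the list of Ly6 proteins and acetylcholine receptors, which left Lypd1 out, Lypd6 was higher at 42.2 ± 12.4 against 22.3 ± 2.58 CPM (0.99). Lypd6b was lower (-0.31), with a call lost in DESeq2, in E18 or P1 libraries alone and in cells of 5000 UMIs or more. Its call was also lost without E18 replicate 1, E18 replicate 3 or P1 replicate 2, with at least 2 Lypd1 UMIs and with 0 Calb2 UMIs.

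Of 19 tested guidance genes, 3 were higher (15.8%), Sema3a, Plxna4 and Robo1, and 4 lower (21.1%), Efna5, Unc5b, Unc5d and Ephb3. Over all genes tested 5.89% were higher and 5.96% lower, and the lists that follow stand beside the same shares. Plxna4, Robo1 and Ephb3 lost their call in DESeq2 and in P1 libraries alone, and Plxna4 and Ephb3 also in E18 libraries alone. Plxna4 lost it without P1 replicate 1 and after thinning, and Robo1 without E18 replicate 1. Sema3a, a secreted repellent, stood at 46.4, 30.0, 37.3, 20.9 and 22.3 CPM against 14.5, 8.37, 8.40, 6.46 and 12.7 CPM, with no overlap (1.68, SE 0.23, edgeR adjusted p = 9.1e-09). The netrin receptors Unc5b (-1.37) and Unc5d (-0.78) were lower. Of 28 adhesion genes tested 9 were higher (32.1%), among them Ntng1, Tenm2 (2.30) and Pcdh7 (1.27), and 4 were lower (14.3%), among them Cntn5 (-0.85). Of 9 tested receptors of neurotrophins and GDNF ligands none was higher and 4 were lower (44.4%): Gfra2 (-1.92), Gfra1 (-1.23), Ngfr and the NT-3 receptor gene Ntrk3 (-0.39). With 9 genes, the lack of a higher gene cannot be set apart from the 5.89% of all genes. All 20 cytoskeletal genes were tested, with 7 higher (35.0%), including Sncg (0.63) and Gap43 (0.30), and 6 lower (30.0%), including Nefh (-0.39).

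Markers of other cells that the dissection could carry over were mostly too low to test. Of 10 pan-neuronal markers 3 were higher and 2 lower, beside 5.89% and 5.96% of all genes tested. Their sum ran from 15090 to 18480 CPM in Lypd1+ Calb2-low neurons and from 15430 to 18680 CPM in the others. Of 8 hair cell markers, Pou4f3, Otof, Tmc1, Atoh1 and Gfi1 had no UMI in these neurons. Only Myo6 was tested (0.48), with overlapping libraries, and it lost its call without E18 replicate 1, without P1 replicate 2 and in DESeq2. The 8 glial markers summed to 205 to 301 CPM in these neurons against 72.5 to 165 CPM in the others. S100b alone made up 217 ± 36.5 against 81.3 ± 36.3 CPM of this, and Sox10 had no UMI in these neurons. The 7 mesenchyme markers summed to 38.5 to 65.6 CPM against 51.2 to 97.6 CPM, with Dcn lower by 1.60. Geniculate markers had no UMI in either class, and sums of endothelial, macrophage and melanocyte markers stayed at or under 22.3 CPM. The immediate early gene Jun was higher (1.17) and Fos lower (-0.50).

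Double positive cells are the nearest class, since they share Lypd1 and differ from the neurons described here by Calb2. All 4 classes were fitted together, and 284 of 6939 genes differed (percent called 4.09), 122 higher (1.76) and 162 lower (2.33). Pou4f1 stood at 27.5, 29.9, 34.7, 13.4 and 14.5 CPM in double positive cells, below its lowest value of 88.4 CPM in Lypd1+ Calb2-low neurons (log2 difference 2.53, SE 0.19, edgeR adjusted p = 8.12e-20). Espn (1.87), Bhlhe22 (1.49), Slc17a6 (1.16), Cdk14 (1.09) and Ntng1 (0.88) were higher too, although Ntng1 lost its call in DESeq2 (adjusted p = 0.0592). Other genes at the top were Hmcn1 (2.34), Igfbp2, which binds insulin-like growth factors (2.24), Vav3 (2.11) and Elmod1, a regulator of small GTPases (1.58). Myl1 (-4.78), Necab1 (-2.49), Prph (-2.26), Dcn (-2.17), Me1 (-2.15) and Syndig1 (-2.15) were lower. In double positive cells Myl1 was uneven between the ages, at 11.8, 4.99 and 13.0 CPM at E18 and 93.7 and 114 CPM at P1, and it lost its call in E18 libraries alone. Igfbp2 and Syndig1 lost theirs in P1 libraries alone. None of 23 tested sodium, HCN and calcium channel genes or 8 glutamate receptors passed here. The same held for 5 genes of Ly6 proteins and acetylcholine receptors and 7 receptors of neurotrophins and GDNF ligands. With so few genes in each list, this cannot be set apart from the 4.09% of all genes. Kcna1 and Syt2, higher than in all other cells, did not pass against double positive cells. Runx1 did not pass, at 269 ± 63.0 in Lypd1+ Calb2-low neurons and 227 ± 49.8 CPM in double positive cells (0.28, SE 0.10, edgeR adjusted p = 0.108). Calb1, known from IB neurons, was lower in Lypd1+ Calb2-low neurons than in double positive cells, which held 342, 155, 147, 198 and 85.1 CPM against 132, 57.8, 68.8, 124 and 62.5 CPM. It was lower in each of the 5 libraries (-1.01, SE 0.13, edgeR adjusted p = 1.14e-09).

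Within Lypd1-positive cells, mean levels of several genes differed along the Calb2 scale. These cells were divided into those with no Calb2 UMI (297), above 0 and under 5 per 10000 (115), 5 to under 20 (166) and 20 or more (132). The thinnest of these groups in a library had 8 cells, so its values are noisy. Mean Pou4f1 was lower at each step of this order, at 129 ± 20.9, 98.0 ± 37.8, 35.6 ± 14.4 and 8.48 ± 8.05 CPM. However, P1 replicate 2 went from 106 to 125 CPM at the first step and E18 replicate 3 from 46.0 to 55.1 CPM at the next. Espn ran at 130 ± 63.3, 116 ± 81.2, 62.4 ± 40.4 and 8.04 ± 7.53 CPM, and went up at the first step in E18 replicates 1 (163 to 223 CPM) and 2 (62.2 to 74.1 CPM) and at the next in E18 replicate 3 (32.9 to 41.3 CPM). Mean Ntng1 stood at 554, 575 and 439 CPM in the first 3 groups and at 183 CPM in the last. Across the limit of 5 it went from 415 to 292, 519 to 517 and 703 to 682 CPM in E18 replicates 1 to 3. In P1 replicates 1 and 2 it went from 550 to 366 and from 687 to 340 CPM. Runx1 was flatter, at 272, 261, 260 and 180 CPM. Mean Prph ran the opposite way, at 23.4 ± 15.1, 94.6 ± 56.6, 140 ± 39.8 and 258 ± 123 CPM. At the last step, however, it went down in E18 replicate 2 (192 to 137 CPM) and P1 replicate 2 (154 to 117 CPM). In E18 replicate 3 it went down at the step before (92.0 to 82.6 CPM). Lypd1 itself, part of the rule, stood at 1399 CPM in the first group and 376 CPM in the last. These values are a description without a test, since Calb2 set the groups.

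**Figure D4:**
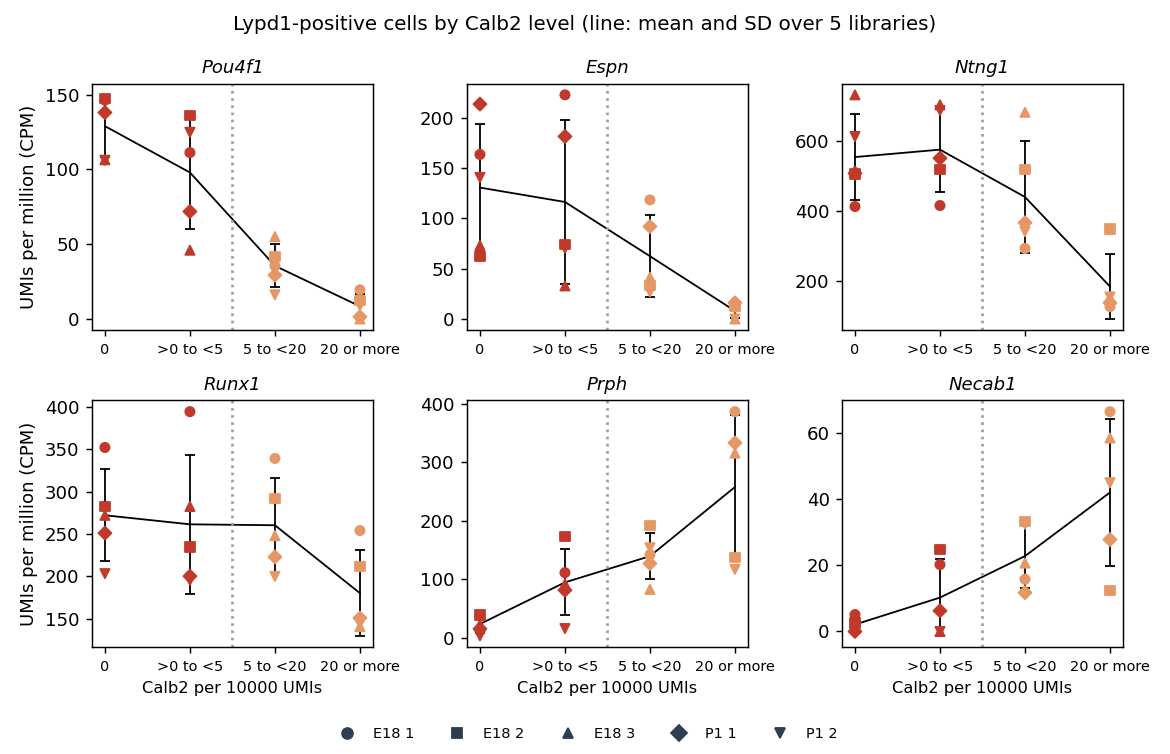
Summed level (CPM, linear axes that do not all start at 0) of 6 genes in Lypd1-positive cells, in 4 groups of Calb2 per 10000 UMIs. Symbols are the 5 libraries, the line joins means with SD bars, and the dotted line is the limit of 5. Mean Pou4f1 goes from 129 to 8.48 CPM from left to right and mean Prph from 23.4 to 258 CPM, while Runx1 stays at 260 to 272 CPM over the first 3 groups.

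Pou4f1 was detected in 212 of the 412 neurons, with 360 UMIs in all of them. At so few UMIs, detection cannot show whether the neurons differ in Pou4f1, since a neuron may express it with no UMI captured. Those with a Pou4f1 UMI had a median of 7682 UMIs and those without 6855, and the part of depth in this division was not tested. Lypd1, which the rule required in every neuron, is given as a description only. It stood at 977 CPM or more in every library in both groups, with means of 1357 and 1191 CPM. Bhlhe22 stood at 119 ± 21.3 with and 114 ± 25.6 CPM without a Pou4f1 UMI. Prph was 21.2 ± 16.6 with and 70.7 ± 33.7 CPM without, and Calb1 was 77.2 ± 53.9 and 98.2 ± 20.9 CPM. Neurons without a detected Pou4f1 UMI had Bhlhe22, Ntng1 (501 CPM) and Runx1 (238 CPM) above the means of the other cells.

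Against Calb2-only cells, which lack Lypd1, 1062 of 6939 genes differed (percent called 15.3), 533 higher (7.68) and 529 lower (7.62). Pou4f1 had 360 UMIs against 2, a ratio of 241 (95% counting interval 66.2 to 1996). Espn stood at 3.07 ± 1.64 CPM in Calb2-only cells (log2 difference 5.41), Bhlhe22 at 5.37 ± 3.97 (4.66), Ntng1 at 31.6 ± 19.7 (4.26), Slc17a6 at 7.45 ± 2.21 (4.08) and Neurod1 at 1.79 ± 2.51 CPM (3.80). Runx1 was higher by 3.00 and Calb1 by 2.41. Myl1 (-5.97), Nexn (-3.89), Necab1 (-3.80) and Dok5 (-3.41) were lower, and each passed edgeR's adjusted threshold.

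Double negative cells share low Calb2 but have no Lypd1 UMI, and they held markers of type II neurons. They numbered 34, 38 and 16 at E18 but only 7 and 10 at P1, so single P1 values rest on few cells. Of 6939 genes 826 differed (percent called 11.9), 452 higher (6.51) and 374 lower (5.39) in Lypd1+ Calb2-low neurons. All 7 tested type II genes were lower in the latter. Th stood at 91.4, 38.5, 211, 212 and 152 CPM in double negative cells and had 2 UMIs in all Lypd1+ Calb2-low neurons, a ratio of 183 (49.1 to 1530). Efna5 (ratio 232, 62.7 to 1935), the polo-like kinase gene Plk5 (220, 37.9 to 8837), the scaffold gene Slc9a3r1 (137, 36.6 to 1157), Iqgap2 (96.2, 25.2 to 816) and the BMP antagonist gene Nog (90.3, 23.6 to 768) were likewise higher in double negative cells. Syt2 had 109 UMIs in Lypd1+ Calb2-low neurons and none in double negative cells, and was at least 9.26-fold higher, with the floor set at 3 counts over the class. Ppp1r27 (4.05) and Pvalb (2.78) were also higher. Slc17a6 differed less here (0.95, SE 0.21, edgeR adjusted p = 0.000304), with 66.5 ± 29.4 CPM in double negative cells.

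The comparison of ages inside the class tested 6461 genes, and edgeR called 0 (percent called 0). At an unadjusted p under 0.05 there were 318, and DESeq2 called 1. In simulated counts with a spread set in advance, the edgeR test recovered 21.2% of genes changed by log2 1 and 91.8% changed by log2 2. The lack of a call therefore does not show that a gene was unchanged. With 3 libraries against 2, Pou4f1 had a mean of 123 CPM at E18 and 110 CPM at P1 (log2 difference -0.05, SE 0.29, edgeR adjusted p = 0.987), Espn 103 and 160 CPM (0.74, SE 0.38, adjusted p = 0.915), and Bhlhe22 101 and 138 CPM (0.54, SE 0.26, adjusted p = 0.915). Ntng1 had 548 and 580 CPM.

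A test of whether the difference between Lypd1+ Calb2-low neurons and other cells was unequal at the 2 ages called 4 of 7931 genes (percent called 0.0504) in edgeR, 1 with a more positive difference at P1 (0.0126) and 3 with a more negative one (0.0378), with 531 at an unadjusted p under 0.05. Runx1 stood in these neurons at 366, 274 and 275 CPM at E18 and at 228 and 201 CPM at P1, and in the other cells at 91.5, 93.9 and 74.6, then 116 and 100.04 CPM. The difference from other cells was lower at P1 (-0.83, SE 0.18, edgeR adjusted p = 0.00561). Jun, whose antisense neighbour Junos overlaps it, stood at 440, 647 and 491, then 401 and 292 CPM, against 110, 316 and 243, then 257 and 162 CPM (-0.63, SE 0.13, edgeR adjusted p = 0.00561). Nefm, the middle neurofilament gene, which overlaps Nefl, stood at 3492, 3038 and 3237, then 2708 and 2249 CPM, against 2491, 2592 and 2561, then 2778 and 2263 CPM (-0.35, SE 0.08, edgeR adjusted p = 0.0204). Ache, the acetylcholinesterase gene, differed in the other direction, at 74.7, 34.3 and 51.1, then 121 and 49.1 CPM, against 159, 59.5 and 68.3, then 85.3 and 48.2 CPM (1.32, SE 0.25, edgeR adjusted p = 0.000946). All 4 lost their call without E18 replicate 1, without P1 replicate 1 and in DESeq2. E18 replicate 1 is the library with the higher share of mt-Rnr2 given above, and the part of that in these differences was not tested.

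**Figure D5:**
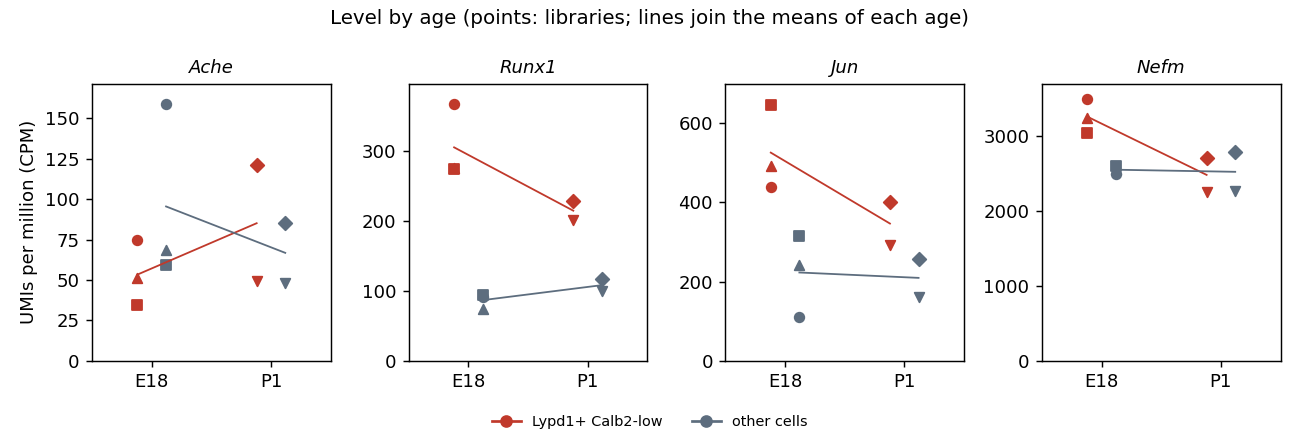
Level (CPM, linear axes from 0) of the 4 genes whose difference was unequal at the 2 ages, in Lypd1+ Calb2-low neurons (red) and other cells (blue-grey). Circles, squares and upward triangles are E18 replicates 1 to 3, diamonds and downward triangles P1 replicates 1 and 2, and lines join the means of the ages. Runx1 in the red class lies at 274 to 366 CPM at E18 and at 201 and 228 CPM at P1.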

How the data were processed

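Single-cell UMI counts per gene were deposited by the authors without normalization, and a second deposited table holds natural log values, ln of 1 plus the count per 10000 UMIs. Cell Ranger 3.0.1, Seurat 3.2 and the mm10 build are named in the submitters' processing notes. The count table used here held 17999 of 26655 genes. Counts of the other 8656 (29.5% of E18 and P1 UMIs) were computed back from the log table, all whole within 0.001. The last number in each cell's name was read as its library, as numbered in the sample descriptions, although no label says so. No cell was removed and no doublet caller was run.

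Counts were summed per library and class and tested with edgeR 4.0.16 (TMM, filterByExpr, library as block). The adjusted p, for genes across the whole table, is Benjamini-Hochberg. For each comparison the named genes were the largest differences in each direction with at least 20 CPM in the higher class and 1 direction in all 5 libraries, plus up to 4 genes per list by adjusted p. A few other list genes were named after their values were seen. DESeq2 1.42.0, other gates, thinning and left-out libraries were alternatives. The p-values rest on the spread between 5 libraries. The cells and lists were chosen with earlier results of these data known. The tests were tested on simulated data. Some genes of the lists are counted but not reported by name here.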

Additional observations from a re-analysis of the deposited data

Results flagged for a closer look

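Among the 24 genes named by size in the comparison of Lypd1+ Calb2-low neurons with other cells, a single library stood apart from the other 4 for 4 genes, by Dixon's test at 95% on the log2 ratio of CPM plus 1. Chance alone marks about 1 in 20 groups. Slc17a6 had a log2 ratio of 2.469 in E18 replicate 2 against 1.84 to 1.97 elsewhere. In P1 replicate 2 the ratio was -4.862 for Prph, -4.955 for Me1 and -4.262 for Creg2, where Me1 and Creg2 had no UMI in these neurons. In the other 4 libraries Prph lay between -3.13 and -2.56, Me1 between -2.88 and -2.10 and Creg2 between -2.57 and -1.98. The direction was the same in 5 of 5 libraries for each.

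The difference from other cells at P1 minus that at E18, as fitted in edgeR, was 1.317 for Ache, -0.628 for Jun, -0.355 for Nefm and -0.832 for Runx1. These 4 passed the test of unequal differences at the 2 ages.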

How the results depend on the processing

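Where a gene named by the rule or in the text was tested under an alternative, no called difference reversed. Losses in the fit without the block by library and in some other alternatives are not given above for every gene. RLE scaling kept 91 of 91 such genes called against other cells, DESeq2 74, thinned cells 65 of the 73 still tested, P1 libraries alone 67 of 91 and the fit without the block by library 49. Against other cells (940 genes), DESeq2 called 424, thinned cells 528, P1 libraries alone 430 and the fit without the block by library 165. Against double positive cells (284) these were 166, 118, 145 and 32, and E18 libraries alone gave 160. Against Calb2-only cells (1062) they were 707, 602, 509 and 264. Against double negative cells (826), thinning gave 490, P1 alone 503 and no block 342. Leaving out each library in turn gave 740 to 890, 206 to 248, 764 to 939 and 637 to 750 genes for these 4 comparisons. For P1 against E18 (0), no filter on low counts gave 8. DESeq2, cells with 5000 UMIs or more, thinning and the genes of the deposited count table alone gave 1 each, and left-out libraries gave 0 to 1. The replicate block gave 22, but no label ties a number to a litter or day shared by the ages. Deviations of same-numbered libraries correlated at 0.24 for number 1 and -0.02 for number 2, and since deviations of 2 P1 libraries mirror each other, these values cannot show whether the numbers pair the samples. For the unequal age differences (4), DESeq2 gave 0, thinning 1, neurons with 0 Calb2 UMIs 1, the count table's genes 2 and left-out libraries 0 to 5. The share of these neurons at P1 minus E18 ranged from -8.49 to -4.62 points without single libraries. Causes of these changes were not tested, though thinning and P1 alone use fewer cells or libraries. Genes under the filter on low counts were not tested, and the P1 libraries held 7 and 10 double negative cells.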

Other observations

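The same rule on Lypd1 and Calb2, applied to the younger libraries of the series, took 661 of 1637 cells at E14 and 1121 of 2478 at E16. At those ages the tissue was dissociated with trypsin in place of papain, so age and enzyme cannot be told apart, and these cells entered no comparison.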
